A study of Mus musculus with 32 samples.

Results

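Alveolar macrophages (AM) were compared with inflammatory monocytes (iMo) by RNA-seq in cells sorted from mouse lungs. All libraries labelled AM or iMo were taken, which gave 8 of the 16 RNA libraries and 8 of the 32 samples of the series. The 4 AM libraries came from untreated C57BL6J mice (2 libraries) and untreated DBA2J mice (2 libraries), and the 4 iMo libraries were divided in the same way. C57BL6J and DBA2J are inbred strains, and neither carried a labelled transgene or deletion. The cells were sorted after staining for SiglecF, CD11c, F4/80 and CD64, for CD11b, Ly6c and Ly6g, and for CD45, and the RNA was made into strand-specific polyA libraries. The series title speaks of activated phagocytes, although these samples are labelled untreated. One label field calls the iMo macrophages and the design text calls them monocytes; the latter name is used here. No label says whether replicates were separate mice or pools of mice, so every p-value measures only the spread between these libraries, which may be technical. Chromatin accessibility was measured by ATAC-seq in the same cell types, with 1 deposited peak list for each cell type and strain.

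Alveolar macrophages live in the air spaces, where they take up and break down surfactant, the film of lipid and protein that coats the alveoli. They depend on the growth factor GM-CSF and on the lipid-sensing nuclear receptor PPARγ (gene Pparg), and they maintain themselves largely by local division. Inflammatory monocytes are made in the bone marrow, enter the blood through the chemokine receptor CCR2, carry the surface protein Ly6C, and can become macrophages or dendritic-like cells once in tissue.

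The table gives a level in TPM (transcripts scaled by gene length and library total) for each of 24940 genes. The entries Rn45s, the precursor of ribosomal RNA, and Mir6236 held 64.3 to 67.6% of the TPM sum of the AM libraries and 22.6 to 44.7% of that of the iMo libraries. They were removed and every library was rescaled, and all levels below are rescaled TPM. Levels multiplied by the gene length in the table gave whole reads, with 13508286 to 22616510 reads in listed genes per AM library and 6697417 to 13165531 per iMo library. That length was the whole genomic span for 99.2% of genes, introns included, so a level is compared here between libraries and not between genes. Replicates correlated at r = 0.930 to 0.958 across genes, and the first principal component, with 65.9% of the variance, separated AM from iMo. Differences are AM minus iMo, adjusted for strain, on the log2(TPM + 1) scale with a standard error from limma, which understates the change of genes at low level. The threshold for a call was 0.05 on the p-value adjusted by Benjamini and Hochberg's method. Where 4 values are given, they are C57BL6J replicates 1 and 2 and then DBA2J replicates 1 and 2.

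The 2 cell types differed in the majority of the genes measured. Of 13289 genes tested, 7200 (54.2%) were called, 3753 (28.2%) of them higher in AM and 3447 (25.9%) lower. A called difference of at least 2-fold was seen for 3867 genes (29.1%), of which 2161 (16.3%) were higher in AM and 1706 (12.8%) lower. All 4 AM libraries lay above all 4 iMo libraries for 3387 genes (25.5%), and all 4 iMo libraries lay above all 4 AM libraries for 2986 (22.5%). The median log2 difference over all genes was 0.06. Every count of list members below is to be read against these shares, since more than every other gene was called. With TPM as deposited, which keeps Rn45s and Mir6236 and is not rescaled, 11695 genes passed the same filter. Their median was -0.58, and 1510 of them were called higher and 6576 lower. The direction of small differences thus rests on the removal and the rescaling. Here as throughout, fewer cells of a type in a sorted sample and less RNA per cell cannot be told apart.

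The markers chosen for both cell types separated the AM from the iMo libraries. Krt19, a keratin, was 1867, 1914, 1330.2 and 1132 in AM and had no read in any iMo library. Scaled to the reads of each library, Krt19 was at least 3241-fold higher in AM, with 3 reads over the iMo group as the floor (log2 difference 10.57 ± 0.14, adjusted p = 6.6e-08). Siglecf, the sialic acid-binding lectin by which alveolar macrophages are recognised, was 865, 878, 402 and 438 in AM and 1.34, 1.33, 1.02 and 0 in iMo (8.38 ± 0.21, adjusted p = 1.7e-07). Both AM markers were higher in the C57BL6J than in the DBA2J AM libraries, and their AM and iMo libraries lay far apart.

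In the other direction, Ly6c2, the gene of the monocyte surface protein Ly6C, was 1.22, 0.776, 2.67 and 1.52 in AM and 1165, 1269, 925 and 727 in iMo (-8.67 ± 0.26, adjusted p = 3.8e-07). Reads of Ly6c2 and its close copy Ly6c1 may be split uncertainly. Ccr2, the receptor for the chemokine CCL2, was 13.9, 8.45, 21.2 and 38.5 in AM and 2016, 2750.5, 3797 and 3202 in iMo (-7.26 ± 0.26, adjusted p = 7.1e-07 in limma). Ccr2 was not particular to iMo in the series. Its mean was 2941.5 in iMo, 1907 in the interstitial macrophage libraries and 565 in the patrolling monocyte libraries. SiglecF and Ly6c were stained for the sort, and all of these markers were chosen with earlier results of these data known, so their separation is a description.

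**Figure D1:**
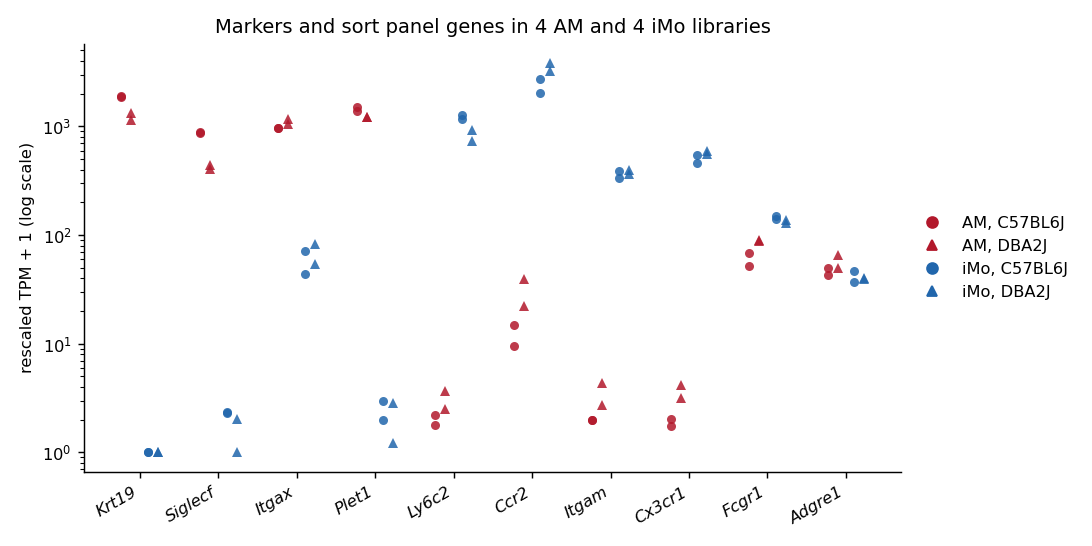
Level of 10 markers and sort panel genes (x axis) as rescaled TPM with 1 added (y axis, log scale), with 1 point per library, AM in red, iMo in blue, circles for C57BL6J and triangles for DBA2J. Krt19, Siglecf, Itgax and Plet1 are higher in all 4 AM libraries and Ly6c2, Ccr2, Itgam, Cx3cr1 and Fcgr1 in all 4 iMo libraries, while Adgre1 overlaps.

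The other genes of the sort panel followed in part. Itgax, which encodes CD11c, was 972, 963, 1051 and 1158 in AM and 42.5, 70.6, 53.4 and 81.5 in iMo (4.08 ± 0.18, adjusted p = 1.9e-06). Itgam, which encodes CD11b, was 0.988, 0.998, 1.76 and 3.38 in AM and 336, 386, 393 and 367 in iMo (-7.14 ± 0.20, adjusted p = 2.9e-07). Ptprc (CD45) and Fcgr1 (CD64), carried by both cell types, were lower in AM by 1.54 ± 0.18 and 0.94 ± 0.16 on the log2 scale, with adjusted p = 2.5e-04 and 0.00198. Adgre1 (F4/80) was 48.4, 42.0, 49.3 and 64.2 in AM and 35.7, 45.3, 39.6 and 38.4 in iMo and was not called (0.34 ± 0.14, adjusted p = 0.0735); with TPM as deposited its difference was -0.33. Adgre1 was called higher in AM in 5 alternatives, with differences of 0.35 to 0.44 and adjusted p = 0.00722 to 0.0221 (limma): median-of-ratios scaling, quantile normalization, the 2 fits on recovered reads, and without iMo C57BL6J replicate 2. Ly6c1 was not called either (0.81 ± 0.58, adjusted p = 0.274), but was higher in AM without iMo C57BL6J replicate 1 (1.47, adjusted p = 0.00258 in limma) and in DBA2J alone (adjusted p = 0.021). Ly6g, a neutrophil gene, was below the level tested.

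Markers of other lung cells were low but not absent, and their summed levels differed between the sorts. The 14 neutrophil markers summed to 86.8 to 124 in AM and 767 to 1158 in iMo. Of these 6 were tested, with 2 higher in AM and 3 lower, and the others were below the level tested. Csf3r and Cd177, both on this list, made up most of the iMo sum; Ly6g was at 0 in all 4 iMo libraries, and Mpo and Elane, genes of early neutrophil stages, were at 0 in AM and at no more than 1.45 in iMo. B cell markers summed to 52.8 to 203 in AM and 123 to 678 in iMo, with 7 of 8 lower in AM. Cd22, the member not called, was the largest part of the sum in both C57BL6J AM and both DBA2J iMo libraries. Dendritic cell markers summed to 24.3 to 49.1 in AM and 154 to 245 in iMo, with 4 of 8 lower in AM and Cd209a among them (-6.14 ± 0.19). Endothelial markers summed to 75.5 to 364 in AM and 26.3 to 54.1 in iMo, with 3 of 8 higher in AM (median 1.23), but 7 of these 8 with voom on recovered reads (median 2.30). Vwf, which encodes von Willebrand factor, was 31.2 to 41.4 in AM and 1.18 to 2.86 in iMo. Cldn5, an endothelial junction gene, was called as well (1.76 ± 0.57, adjusted p = 0.0314), but not after leaving out any 1 of 6 of the 8 libraries (both DBA2J AM, both DBA2J iMo and replicate 2 of either C57BL6J group).

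T and NK cell markers summed to 284 to 464 in AM and 31.8 to 253 in iMo, with 1 of 13 higher in AM and 2 lower; Cd2, a lymphocyte adhesion molecule, made up most of the AM sum at 272 to 416. Of 6 epithelial markers 1 was higher and 2 lower in AM (25.3 to 85.9 in AM and 83.8 to 179 in iMo), and Sftpc, which encodes surfactant protein C, was 6.35, 16.2, 2.58 and 1.10 in AM. None of 5 fibroblast markers was called (1.71 to 50.5 in AM and 4.00 to 20.2 in iMo), and 1 of 5 erythroid markers was higher in AM (18.1 to 537 in AM and 3.50 to 296 in iMo). The eosinophil genes Epx and Prg2 were at 0 or too low to test, and Kit was the one mast cell marker tested and not called. The part of these cells in the differences below was not tested.

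All 20 markers listed for alveolar macrophages were higher in AM, with a median log2 difference of 6.0. Such lists were drawn up for these cell types with earlier results known, so their direction is a description. Ear1, an eosinophil-type ribonuclease, was 1667, 1816, 2250.3 and 2892 in AM and 0, 0, 12.7 and 2.86 in iMo (9.61 ± 0.55, adjusted p = 5.5e-06); its near copy Ear2 differed by less (2.63 ± 0.29), and reads may be shared between them. Plet1, a surface protein best known from placenta and epithelium, was 1503, 1381, 1212 and 1227 in AM against 0.983, 1.94, 1.87 and 0.224 in iMo (9.28 ± 0.26, adjusted p = 2.9e-07), although its locus overlaps Plet1os. Ch25h, which makes the oxysterol 25-hydroxycholesterol, was 314, 300.1, 642 and 541 in AM and had no read in iMo, so that it was at least 448.2-fold higher in reads scaled to the library.

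Cidec, which coats lipid droplets and drives their fusion, was 503, 504, 444 and 380.3 in AM and 0, 0, 0.871 and 0.224 in iMo (8.53 ± 0.22, adjusted p = 1.8e-07). Spp1, which encodes the secreted glycoprotein osteopontin, was 455, 451, 2943 and 3153 in AM and 1.93, 1.67, 5.13 and 2.57 in iMo (8.35 ± 0.40, adjusted p = 2.5e-06), and its DBA2J AM libraries stood several-fold above the C57BL6J ones. Fabp1, a fatty acid-binding protein better known from liver, was 212, 209, 604 and 358 in AM with no read in iMo (at least 1332-fold). Ffar2, a receptor for short-chain fatty acids, was 144, 112, 613 and 582 in AM, again with no iMo read (at least 710.5-fold).

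Krt79 (8.43 ± 0.28), the glycosyltransferase B3gnt7 (8.91 ± 0.46), the secreted protein Kazald1 (7.97 ± 0.35), coagulation factor gene F7 (8.04 ± 0.13) and the proton pump subunit Atp6v0d2 (7.96 ± 0.17) completed the largest increases described here. For each of them the 4 AM libraries lay above the 4 iMo libraries. Other listed AM markers with differences over 4 included the carbonic anhydrase Car4 (6.55 ± 0.16), the tetraspanin Cd9 (6.02 ± 0.23), the oxidised lipoprotein receptor Olr1 (4.97 ± 0.24) and the mannose receptor Mrc1 (5.22 ± 0.15). Marco, a scavenger receptor for particles and bacteria, was 115, 138, 14.5 and 8.0 in AM and had 2 reads over the 4 iMo libraries, a ratio of 2225 in scaled reads with a counting interval of 616.1 to 18380.

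Of 18 tested markers listed for inflammatory monocytes, 13 were lower in AM and 4 higher (median -3.71). The largest difference was that of Ifitm6, an interferon-induced transmembrane protein, at 0, 1.82, 1.87 and 6.36 in AM and 2418, 1749, 1909 and 1741 in iMo (-9.45 ± 0.49, adjusted p = 3.4e-06); it has the close relative Ifitm3 (-7.97 ± 0.54), and reads may be shared. Plac8 was 0.415, 0.371, 2.03 and 2.29 in AM and 639, 706, 581 and 618 in iMo (-8.24 ± 0.26, adjusted p = 4.2e-07). Cd177, a surface protein also found on neutrophils, was 0.0921, 0, 0.123 and 0.840 in AM and 304, 263, 490.0 and 415 in iMo (-8.19 ± 0.17, adjusted p = 1.3e-07). For these genes the lowest iMo library was far above the highest AM library.

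Further genes of this side were Arhgef37 (-7.78 ± 0.19), the calcium-binding protein gene S100a4 (-7.55 ± 0.50), the pyrin gene Mefv (-7.52 ± 0.22), the schlafen gene Slfn1 (-7.28 ± 0.17), the coagulation factor XIII subunit gene F13a1 (-7.24 ± 0.14) and Plbd1 (-7.17 ± 0.23). The listed marker Hp, which encodes haptoglobin, differed by -6.93 ± 0.32.

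Of the 4 listed monocyte markers that were higher in AM, Chil3, a chitinase-like secreted protein that is also on the AM list, was 3963, 3796, 1120.0 and 1099 in AM and 337, 408, 110.4 and 80.2 in iMo (3.46 ± 0.12, adjusted p = 5.4e-07). Cd14, the co-receptor for bacterial lipopolysaccharide, was 419, 459, 448 and 481 in AM and 263, 205, 201 and 217 in iMo (1.03 ± 0.10, adjusted p = 1.1e-04), but was not called with TPM as deposited (0.33, adjusted p = 0.0526 in limma). F10, which encodes coagulation factor X, was 112 to 143 in AM and 43.0 to 87.0 in iMo (0.99 ± 0.19, adjusted p = 0.00324), and was not called with TPM as deposited (0.29, adjusted p = 0.261 in limma) or in C57BL6J alone (0.59). S100a8, a calcium-binding protein abundant in neutrophils and monocytes, was 25.5, 20.3, 40.9 and 36.9 in AM and 3.24, 0, 21.6 and 20.8 in iMo (2.19 ± 0.63, adjusted p = 0.0204); its AM and iMo values overlapped, and the call was lost without either C57BL6J AM library.

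Of 15 markers of patrolling monocytes, the vessel-surveying monocyte subset, 12 were lower in AM and 1 higher (Cd36, 1.64 ± 0.28), with a median of -2.50. Cx3cr1, the fractalkine receptor, was 1.02, 0.750, 2.16 and 3.21 in AM and 464, 541, 597 and 562 in iMo (-7.69 ± 0.18, adjusted p = 1.6e-07), and the sphingosine-1-phosphate receptor S1pr5 (-6.65 ± 0.38) and Adgre4 (-5.86 ± 0.24) were also lower. Of 16 genes listed for interstitial macrophages 9 were lower in AM and 2 higher (median -2.40). The 2 were Mertk, a receptor for apoptotic cells, at 182, 199.7, 71.7 and 102 in AM and 0.419, 0.155, 1.26 and 0.696 in iMo (6.34 ± 0.36, adjusted p = 5.5e-06), and Pf4, the platelet chemokine gene, at low level (at least 7.17-fold, 35 AM reads and none in iMo).

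Transcription factors of the macrophage and monocyte programmes were divided between the cell types. Of 18 listed macrophage factors, 9 were higher in AM and 4 lower (median 0.94). Bhlhe41, a repressor known to act in alveolar macrophage identity, was 244, 275, 198 and 172 in AM and 3.69, 2.26, 1.54 and 2.79 in iMo (5.98 ± 0.17, adjusted p = 3.2e-07). Egr2, a zinc finger factor, was 319.9, 239, 458 and 526 in AM and 6.59, 8.87, 3.90 and 7.64 in iMo (5.62 ± 0.30, adjusted p = 4.0e-06). Tfec (3.97 ± 0.20), Bhlhe40 (3.47 ± 0.36) and Pparg (3.35 ± 0.21) were higher too. Maf, a factor of macrophages in many other tissues, was 3.37, 1.61, 5.27 and 6.29 in AM and 341, 279, 451 and 382 in iMo (-6.23 ± 0.20, adjusted p = 4.6e-07).

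Of 23 listed monocyte factors, 17 were lower in AM and 4 higher (median -1.48). Pou2f2, an octamer-binding factor, was 1.56, 1.11, 1.61 and 4.26 in AM and 195, 277, 259.7 and 308 in iMo (-6.45 ± 0.24, adjusted p = 8.3e-07), and Runx3 (-4.39 ± 0.16), Nr4a1 (-4.27 ± 0.16) and Klf2 (-4.14 ± 0.32) were lower as well. Runx1 (1.81 ± 0.15, adjusted p = 3.9e-05) was among the 4 that were higher. Cebpa, a factor of the whole myeloid lineage, was another (0.83 ± 0.17, adjusted p = 0.00404), but was not called with TPM as deposited. Spi1, which encodes PU.1, the factor that both cell types need, was 380.5 to 436 in AM and 416 to 437 in iMo and was not called (-0.06 ± 0.07, adjusted p = 0.501; 0.05 after quantile normalization).

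Genes of fatty acid use were higher in AM as a group. Of 35 listed genes of fatty acid uptake, storage and oxidation, 29 were higher and none lower (median 1.32). On TPM as deposited 34 were tested, with 19 called higher and 1 lower. Besides Fabp1 and Cidec, the peroxisomal thiolase gene Acaa1b was 388, 513, 404 and 333 in AM and 0, 0.895, 3.06 and 4.15 in iMo (7.34 ± 0.43, adjusted p = 6.1e-06). Angptl4, a secreted inhibitor of lipoprotein lipase, was 203, 231, 142 and 133 in AM and 2.80, 0.809, 0 and 0.375 in iMo (6.63 ± 0.25, adjusted p = 8.7e-07). Mgll, which releases fatty acids from monoglycerides, was 88.8 to 109.9 in AM and 0.0266 to 0.301 in iMo (6.40 ± 0.14, adjusted p = 1.3e-07). The lipid droplet protein gene Plin2 (2.71 ± 0.14) and Hadha, of mitochondrial β-oxidation (1.32 ± 0.08), were higher by less.

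Genes of surfactant breakdown moved both ways, with 8 of 15 higher in AM and 5 lower (median 0.49). Abcg1, which exports cholesterol, was 1320.1, 1239, 1377 and 1441 in AM and 32.2, 43.9, 47.0 and 42.4 in iMo (5.00 ± 0.11, adjusted p = 1.3e-07). Its partner in export Abca1 (3.44 ± 0.17) and the lysosomal phospholipase gene Pla2g15 (3.25 ± 0.10) were higher, as were the genes of the GM-CSF receptor β chain, Csf2rb (1.24 ± 0.09) and its mouse relative Csf2rb2 (1.79 ± 0.09). Npc2, which carries cholesterol within lysosomes, was lower (-1.19 ± 0.08, adjusted p = 1.7e-05). Of 10 genes of cholesterol efflux and LXR targets, 7 were higher and 2 lower (median 1.70), and the lower ones were the apolipoprotein genes Apoc2 (-5.59 ± 0.48) and Apoe (-3.87 ± 0.29). Of 20 genes of cholesterol synthesis, 6 were higher and 5 lower (median 0.06). With TPM as deposited 2 were higher and 9 lower, and in the rescaled values Lss, of the synthesis pathway, was higher by 1.50 ± 0.23.

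Lysosomal genes were largely higher in AM, with 23 of 30 higher and 3 lower (median 0.90), and 13 higher and 8 lower with TPM as deposited. Ctsk, which encodes the collagen-cleaving protease cathepsin K, was 349, 359, 333 and 314 in AM and 3.99, 0.529, 2.86 and 2.21 in iMo (6.77 ± 0.34, adjusted p = 2.9e-06). Ctsd, the aspartic protease cathepsin D, was 7396, 7561, 8154 and 7346 in AM and 289.9, 205, 281 and 227 in iMo (4.93 ± 0.12, adjusted p = 1.7e-07), and the tetraspanin gene Cd63 followed (4.60 ± 0.39). The lower ones were Npc2, the ganglioside activator Gm2a (-1.82 ± 0.09) and the saposin precursor Psap (-0.69 ± 0.10).

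Mitochondrial genes differed by small amounts whose direction rested on the removal of Rn45s and Mir6236 and the rescaling. Of 32 genes of oxidative phosphorylation, 15 were higher in AM and 1 lower (median 0.38), but 1 was higher and 13 lower with TPM as deposited. With both entries removed, 13 were higher and 1 lower after median-of-ratios scaling, 16 and 1 after quantile normalization, and 14 and 1 with voom. The complex I gene Ndufv1 (1.04 ± 0.13) was the largest of the higher ones, though not called with TPM as deposited, and the ATP synthase gene Atp5c1 the one lower (-0.31 ± 0.09, adjusted p = 0.0237), a call lost in each strain alone and without either C57BL6J AM library, AM DBA2J replicate 1 or iMo DBA2J replicate 1. Of 17 genes of the tricarboxylic acid cycle, 9 were higher and 1 lower (Pdha1, -0.97 ± 0.09; median 0.33), and 1 was higher and 9 lower as deposited. Among 19 glycolysis genes 5 were higher and 9 lower (median -0.27; 2 and 13 as deposited). The hexokinase genes Hk2 (-1.61 ± 0.13) and Hk1 (-1.54 ± 0.16) and the glucose transporter gene Slc2a3 (-1.53 ± 0.34) were lower, while the aldolase gene Aldoa was 2832, 2839, 2099 and 1985 in AM and 1066, 862, 856 and 864 in iMo (1.40 ± 0.10, adjusted p = 1.8e-05).

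Of 22 glutathione and antioxidant genes, 12 were higher and 6 lower in AM (median 0.53; 6 and 6 as deposited). The glutathione transferase gene Mgst3 (3.01 ± 0.38), thioredoxin Txn1 (2.02 ± 0.12) and its reductase Txnrd1 (1.83 ± 0.17) were higher, and glutathione reductase Gsr (-1.40 ± 0.10) and peroxiredoxin 6, Prdx6 (-1.34 ± 0.11), lower. Of 14 enzymes of leukotriene and prostaglandin synthesis, 6 were higher and 3 lower (median 0.53). Ltc4s, which makes leukotriene C4, was 1647, 1835, 1227 and 967 in AM and 15.1, 1.30, 6.69 and 7.25 in iMo (7.63 ± 0.55, adjusted p = 2.0e-05). Alox5, the 5-lipoxygenase at the head of that pathway, was 102 to 144 in AM and 11.7 to 24.2 in iMo (2.83 ± 0.23, adjusted p = 3.3e-05), and its helper Alox5ap was lower (-0.78 ± 0.07).

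**Figure D2:**
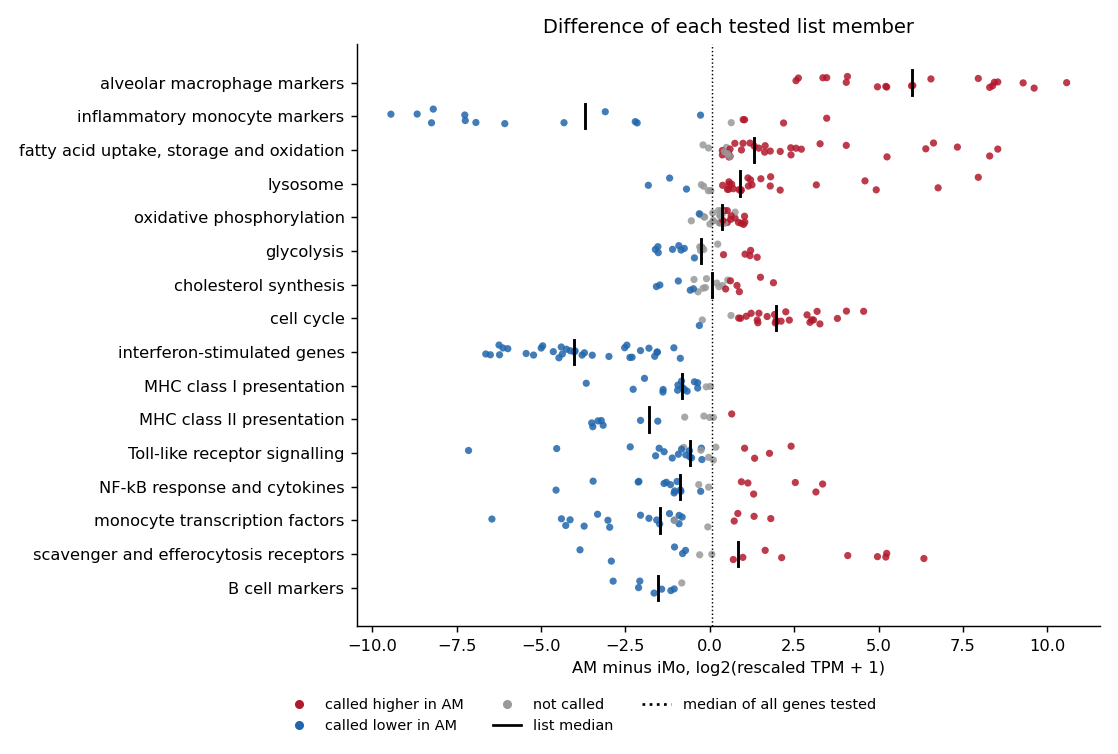
AM minus iMo difference on the log2(TPM + 1) scale (x axis) of every tested member of 16 gene lists (y axis), 1 point per gene, red where called higher in AM, blue where called lower and grey where not called, with each list's median as a bar and the median of all genes (0.06) as a dotted line. Interferon-stimulated genes lie wholly below 0, fatty acid and cell cycle genes largely above it, and genes of oxidative phosphorylation and cholesterol synthesis close to it.

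Cell cycle genes were higher in AM, with 24 of 27 higher and 1 lower (median 1.97). On TPM as deposited 24 were tested, with 18 higher and 1 lower. Ccnd2, a D-type cyclin, was 201, 193, 253 and 310.0 in AM and 8.62, 16.7, 6.45 and 6.91 in iMo (4.56 ± 0.30, adjusted p = 1.1e-05). Rrm2, a subunit of the enzyme that makes deoxynucleotides, was 45, 48.7, 26.6 and 33.0 in AM and 0.529, 0.916, 2.11 and 2.12 in iMo (4.05 ± 0.31, adjusted p = 2.5e-05). Genes of mitosis, Ube2c (3.78 ± 0.48), Top2a (3.26 ± 0.27) and Cdc20 (3.18 ± 0.53), were higher as well. Mki67, the common mark of dividing cells, was 84.1, 95.5, 44.8 and 59.7 in AM and 21.7, 28.3, 27.4 and 20.2 in iMo (1.46 ± 0.20, adjusted p = 5.5e-04). For Mki67 and Rrm2 every AM library was above every iMo library, and the C57BL6J AM libraries were above the DBA2J ones for both. The 1 gene lower in AM was thymidine kinase Tk1 (-0.31 ± 0.10, adjusted p = 0.0317 in limma), a call lost in each strain alone. The Tk1 call was also lost without either C57BL6J AM library, iMo C57BL6J replicate 1, AM DBA2J replicate 1 or either DBA2J iMo library.

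All 33 tested interferon-stimulated genes were lower in AM (median -4.02). With TPM as deposited 32 of them were tested, and all 32 were lower. These genes are switched on by type I interferon and carry antiviral functions. Mx1, a dynamin-like antiviral GTPase, was 0.482, 0.619, 1.72 and 1.08 in AM and 177, 215, 188 and 182 in iMo (-6.64 ± 0.18, adjusted p = 2.5e-07). Oas2, which makes the second messenger that activates RNase L, was 1.34, 2.01, 2.12 and 1.58 in AM and 226, 309, 219 and 246 in iMo (-6.50 ± 0.16, adjusted p = 1.6e-07); the Oas genes are close relatives and may share reads. Irf7, the factor that amplifies interferon production, was 13.2, 13.9, 28.4 and 26.1 in AM and 1575, 1431, 1401 and 1276 in iMo (-6.13 ± 0.22, adjusted p = 6.7e-07).

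Ifit1 (-4.13 ± 0.27), Ifit3 (-5.98 ± 0.26), Oasl2 (-6.24 ± 0.36), Oas3 (-6.23 ± 0.31) and Rsad2, which encodes viperin (-4.95 ± 0.41), were lower, and Ifi35 had the smallest difference (-0.87 ± 0.11, adjusted p = 3.3e-04). For Mx1, Oas2 and Irf7 the highest AM library lay far below the lowest iMo library.

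**Figure D3:**
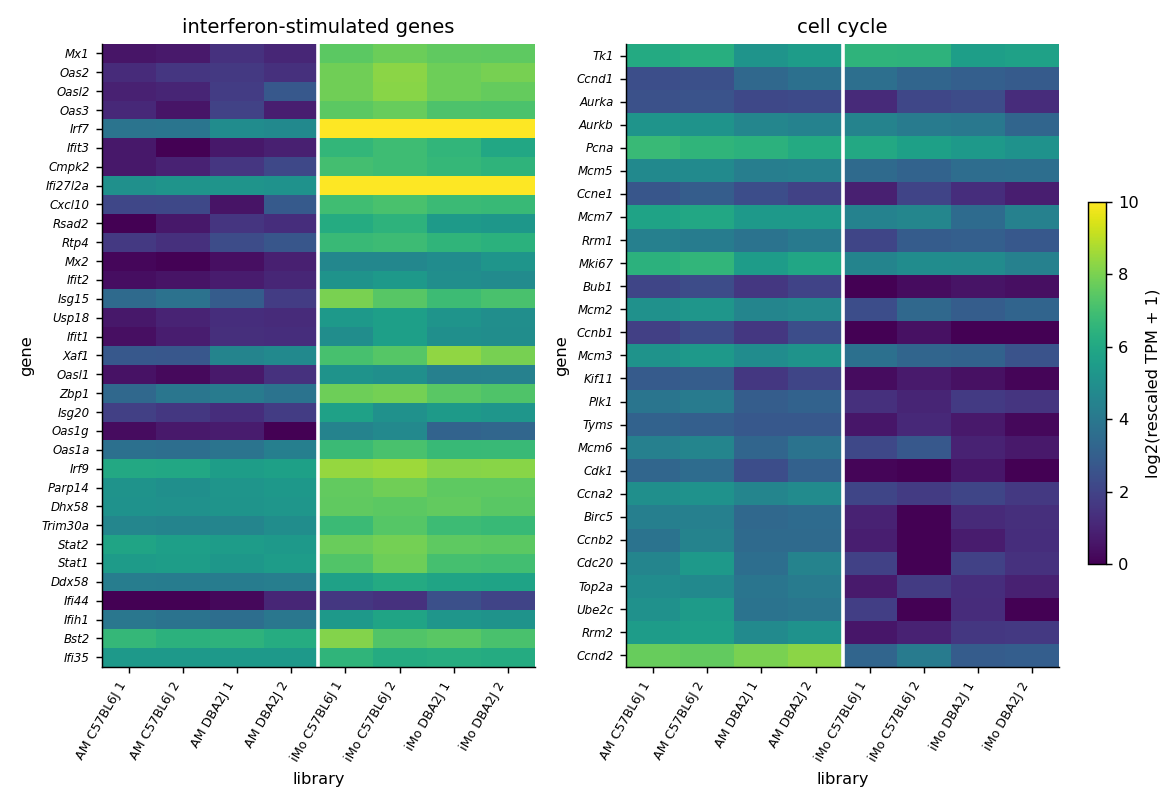
Heat maps of log2(rescaled TPM + 1) (colour scale from 0 to 10) for the 33 interferon-stimulated genes and the 27 cell cycle genes tested (y axes), in the 4 AM and then the 4 iMo libraries (x axes, split by a white line). Interferon-stimulated genes are brighter in the iMo columns, and most cell cycle genes, but not Tk1 or Ccnd1, are brighter in the AM columns.

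The promoters of the interferon-stimulated genes allow the difference to be set beside sequence and chromatin. RefSeq promoter windows of GRCm38.p6, from 250 bases before to 50 after a gene's start, were found for 23 of the listed genes, and 13 of them (56.5%) held, on either strand, the letters of the interferon response element type, GAAA, any 2 bases and GAAA. The share was 3.42% of all 18096 windows, 3.10% of tested genes, 2.10% of genes called higher in AM, 5.23% of those called lower and 12.2% of those lower by at least 16-fold. No window of the listed AM markers, iMo markers, fatty acid or cell cycle genes held them. The list holds genes switched on by interferon, and its members are themselves among the genes called lower. Some members with a match are also among those lower by at least 16-fold. These shares are therefore a description and no separate evidence. A match is a run of letters and not a measured site. The 200 bases before the start of Ifit1 (chr19:34640689-34640888 on the plus strand), Rsad2 (chr12:26456453-26456652 on the minus strand) and Ifit3 (chr19:34583329-34583528 on the plus strand) are printed 5′ to 3′ to show where the element lies in genes with large differences, with the matches in capitals (read from the other strand, each is GAAA, 2 bases and GAAA).
Ifit1: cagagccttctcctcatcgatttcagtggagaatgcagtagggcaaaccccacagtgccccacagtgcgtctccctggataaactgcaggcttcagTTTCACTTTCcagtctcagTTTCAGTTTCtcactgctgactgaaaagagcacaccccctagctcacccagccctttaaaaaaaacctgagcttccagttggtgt
Rsad2: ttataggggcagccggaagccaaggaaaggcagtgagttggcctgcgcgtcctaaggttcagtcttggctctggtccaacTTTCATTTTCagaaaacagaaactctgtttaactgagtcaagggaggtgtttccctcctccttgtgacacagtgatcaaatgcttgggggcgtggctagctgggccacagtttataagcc
Ifit3: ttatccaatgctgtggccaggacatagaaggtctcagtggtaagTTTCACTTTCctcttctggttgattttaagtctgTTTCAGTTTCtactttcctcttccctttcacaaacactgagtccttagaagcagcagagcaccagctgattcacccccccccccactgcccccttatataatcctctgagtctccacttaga

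Ifit1 had 2 matches, the nearest ending 76 bases before the start, Rsad2 had 1, ending 111 bases before it, and Ifit3 had 2. A peak within 500 bases of the start of Ifit1 and of Rsad2 was in both iMo lists and not in both AM lists, whereas Ifit3 had none in both lists of either type. Of the 23 genes 7 had such an iMo peak (Cxcl10, Ddx58, Ifit1, Ifit2, Irf7, Rsad2 and Xaf1), 8 had a peak in both cell types and 8 in neither. Over all genes tested these shares were 16.1%, 51.4% and 28.5%. A gene counted in neither may still have a peak in the list of 1 strain, as Oas3 had in C57BL6J iMo and in DBA2J AM.

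Genes of antigen presentation were lower in AM. Of 12 MHC class II genes, 7 were lower and 1 higher (median -1.80). H2-Aa, an MHC class II chain, was 209.7, 142, 58.6 and 49.0 in AM and 990.0, 988, 1423 and 1048 in iMo (-3.50 ± 0.39, adjusted p = 1.9e-04), and its invariant chain Cd74 was 691, 433, 138 and 152 in AM and 2986, 2762, 3747 and 3067 in iMo (-3.46 ± 0.42, adjusted p = 3.0e-04). Ciita, the master regulator of class II genes, was 9.96, 6.29, 4.88 and 5.26 in AM and 55.9, 68.7, 94.9 and 74.6 in iMo (-3.31 ± 0.24, adjusted p = 2.0e-05). The 1 higher gene was the protease gene Ctss (0.65 ± 0.13, adjusted p = 0.00326), which was -0.05 with TPM as deposited. MHC class I genes were lower by smaller amounts, with 14 of 16 lower and none higher (median -0.82). Their regulator Nlrc5 (-3.66 ± 0.20) and the peptide transporter Tap1 (-2.27 ± 0.12) differed more than B2m (-1.39 ± 0.15) or H2-K1 (-0.84 ± 0.09). B cell and dendritic cell markers, whose cells also carry class II genes, were higher in iMo too, and their part was not tested. MHC alleles differ between the strains and reads of both were processed with the build mm10 per the submitters' notes, and the effect of this was not tested.

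Genes of Toll-like receptor signalling, which are the receptors with their co-receptors, adaptors and kinases, were largely lower in AM, with 15 of 24 lower and 4 higher (median -0.60). Tlr9, the sensor of bacterial DNA, was 6.09, 3.66, 4.96 and 4.55 in AM and 797, 1091, 767 and 657 in iMo (-7.15 ± 0.18, adjusted p = 1.7e-07), and Tlr1, a lipopeptide receptor, differed by -4.53 ± 0.28. The 4 higher genes were Tlr2 (2.41 ± 0.10), Tlr4, the lipopolysaccharide receptor (1.77 ± 0.15), Tlr3 (1.33 ± 0.23) and Cd14. Of 21 genes of the NF-κB response and cytokines, 13 were lower and 6 higher (median -0.87). The co-stimulatory receptor gene Cd40 (-4.55 ± 0.25) and Nfkbiz (-3.46 ± 0.15) were lower. Genes of the interleukin-1 family went in both directions. Il1rn, the receptor antagonist, was 294, 269.6, 329 and 422 in AM and 23.2, 19.8, 39.8 and 49.9 in iMo (3.34 ± 0.16, adjusted p = 2.7e-06), Il1a (3.15 ± 0.28) and Il18 (2.54 ± 0.16) were higher, and Il1b, the inflammasome-processed cytokine, was 18.7, 15.5, 47.9 and 35.1 in AM and 131, 169, 75.8 and 119 in iMo (-2.12 ± 0.38, adjusted p = 0.00235).

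Receptors for chemoattractants differed in both directions, with 5 of 20 higher in AM and 9 lower (median -0.34). Fpr1, which senses bacterial formyl peptides, was 507, 402, 247 and 246 in AM and 2.72, 8.67, 6.86 and 6.03 in iMo (5.65 ± 0.35, adjusted p = 8.1e-06). Cxcr1, a receptor of neutrophil-attracting chemokines, was 57.1, 117, 59.0 and 48.7 in AM with no read in iMo (at least 150.0-fold). Beside Ccr2, Cx3cr1 and S1pr5, the leukotriene B4 receptor gene Ltb4r1 was lower, at 7.74 to 10.3 in AM and 318 to 461 in iMo (-5.30 ± 0.14, adjusted p = 2.0e-07). Of 17 chemokine ligands 5 were higher and 5 lower (median -0.35). Cxcl10, an interferon-induced ligand, was 3.40, 3.48, 0.451 and 6.10 in AM and 121, 140.3, 111 and 107 in iMo (-4.99 ± 0.43, adjusted p = 4.8e-05) and Ccl9 was lower too (-4.11 ± 0.37), while Ccl22 (2.46 ± 0.40) and Cxcl2 (2.29 ± 0.29) were higher.

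Of 21 integrins and adhesion genes, 6 were higher and 11 lower in AM (median -0.44). Beside Itgam and Cd177, Adgre5, which encodes CD97, was lower (-6.18 ± 0.41). Itgax and Cdh1, which encodes the epithelial cadherin (3.61 ± 0.31, adjusted p = 4.8e-05), were higher. Of 21 growth factor, cytokine and TGF-β receptor genes, 6 were higher and 11 lower (median -1.02). Lower were the receptors of the myeloid growth factors M-CSF, G-CSF and FLT3 ligand, Csf1r at 233, 204, 276 and 284 in AM and 1338, 1430.4, 1373 and 1415 in iMo (-2.49 ± 0.10, adjusted p = 9.2e-07), Csf3r by 3.71 ± 0.35 and Flt3 by 3.33 ± 0.30. Smad3, a transducer of TGF-β, was lower (-4.24 ± 0.14) while its receptor gene Tgfbr2 was higher (1.64 ± 0.11).

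Of 16 scavenger and efferocytosis receptors, 9 were higher and 5 lower (median 0.84). Axl, a receptor for apoptotic cells like Mertk, was 1125, 1204, 959 and 1038 in AM and 59.7, 69.1, 64.1 and 57.3 in iMo (4.09 ± 0.08, adjusted p = 1.3e-07), while the haemoglobin receptor gene Cd163 (-3.84 ± 0.18) and the scavenger receptor gene Msr1 (-2.92 ± 0.44) were lower. Of 8 Siglec genes 3 were higher and none lower (median 0.72). C-type lectins were divided, with 4 of 15 higher and 6 lower (median -0.50). Clec4n, which encodes the fungal receptor dectin-2, was 149, 128, 196 and 225 in AM and 6.36, 5.81, 5.08 and 6.99 in iMo (4.61 ± 0.17, adjusted p = 7.1e-07), and dectin-1 (Clec7a) was also higher (1.11 ± 0.18; 0.41 and not called with TPM as deposited). Clec4a1 (-7.01 ± 0.16), Cd209a and Clec10a (-5.22 ± 0.31) were lower. Of 7 Fc receptor genes 4 were lower (median -0.75), among them the inhibitory Fcgr2b (-2.10 ± 0.39), and 1 was higher, the neonatal receptor gene Fcgrt (2.52 ± 0.22, adjusted p = 4.7e-05).

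Of 20 coagulation, matrix and matricellular genes, 9 were higher and 7 lower (median 0.60). F7, of the extrinsic pathway, was 1211, 1122, 1496 and 1402 in AM and 4.63, 3.59, 3.26 and 4.35 in iMo (8.04 ± 0.13, adjusted p = 1.2e-07), and the transglutaminase Tgm2 (3.50 ± 0.16) and the metalloprotease Mmp19 (3.28 ± 0.22) were higher. F13a1, which crosslinks fibrin, was 0.0248, 0.0225, 0.105 and 0.245 in AM and 127, 169, 203 and 169.9 in iMo (-7.24 ± 0.14, adjusted p = 1.3e-07), and thrombospondin (Thbs1, -5.16 ± 0.35), factor V (F5, -5.10 ± 0.25) and versican (Vcan, -4.32 ± 0.21) were lower. Of 14 complement genes 4 were higher and 5 lower (median -0.60), with C1ra, of the classical pathway, at 2.26 ± 0.18. In the chitinase-like, resistin-like and Ear group 3 of 6 were higher and 1 lower (median 2.52); the lower one was Retnla (-3.59 ± 0.26).

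Of 11 keratins and genes best known from epithelium, 9 were higher in AM and 2 lower (median 3.52). Perp, a desmosomal protein gene, was 153, 204, 104 and 121 in AM and 0, 0.225, 0.461 and 0.834 in iMo (6.72 ± 0.27, adjusted p = 1.1e-06). The lower ones were the keratin genes Krt80 (-3.49 ± 0.15) and Krt7 (-3.33 ± 0.28). Epcam, which is on this list and on that of epithelial markers, was 48.2, 39.3, 0.934 and 2.49 in AM and had no read in iMo. The part of epithelial cells in these differences was not tested.

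Of 22 immediate early genes, which respond to cell isolation, 12 were lower and 2 higher in AM (median -0.96). Nr4a1 was 48.4, 53.5, 67.7 and 59.1 in AM and 806, 1249, 1049 and 1433 in iMo, and the phosphatase gene Dusp2 (-4.21 ± 0.40), Egr1 (-2.52 ± 0.42) and Zfp36 (-2.19 ± 0.11) were lower. The 2 higher ones were Egr2 and Jun (0.74 ± 0.14, adjusted p = 0.00342), of which Jun was not called with TPM as deposited. Of 30 cytosolic ribosomal protein genes, 5 were higher and 6 lower (median -0.06), but 1 was higher and 18 lower as deposited; Rplp1 was at 0.99 ± 0.24 (not called as deposited) and Rpl4 at -0.64 ± 0.08, and processed copies of these genes make their counts uncertain.

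The AM minus iMo difference itself differed between the strains for 390 of 13289 genes (2.93%, interaction of strain and cell type). Between 133 and 548 genes passed when 1 library was left out. The lowest counts, 133 to 237, came without either C57BL6J AM library, AM DBA2J replicate 2 or either DBA2J iMo library, and the highest without iMo C57BL6J replicate 1. Cd22, a sialic acid-binding inhibitor best known from B cells, was 180.2, 178, 8.32 and 15.4 in AM and 13.3, 21.1, 328 and 476 in iMo. It was thus high in C57BL6J AM and in DBA2J iMo, with a difference of 3.34 in C57BL6J and -5.00 in DBA2J (interaction -8.34 ± 0.48, adjusted p = 0.00129). Cd79b, a chain of the B cell receptor complex, was 6.18, 8.21, 14.1 and 12.8 in AM and 59.6, 63.7, 104 and 92.5 in iMo. It was thus higher in DBA2J iMo together with Cd22, but lowest in the C57BL6J AM libraries, where Cd22 was high. The part of B cells in the Cd22 values was not tested.

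Chil1, a chitinase-like protein gene, was 1.20, 1.67, 0.530 and 0.900 in AM and 0.408, 0, 132 and 109 in iMo, so that the DBA2J iMo libraries alone were above 3 among the 8 (interaction -7.18 ± 0.39, adjusted p = 0.00129). Several genes were on in AM of 1 strain. Mcoln3, a lysosomal ion channel gene, was 146, 125, 0.591 and 0.546 in AM and 0.166, 0, 0.441 and 0 in iMo (interaction -6.59 ± 0.38). Wfdc21 was 101, 105, 0.177 and 0.403 in AM, with 3 reads over the iMo libraries (interaction -6.88 ± 0.32), and Pnpla5, a lipase gene, was 85.5, 85.5, 0.671 and 1.09 in AM (interaction -5.43 ± 0.34). Spag11b, an epididymal defensin-like gene, was 41.5, 77.9, 0.451 and 0 (interaction -5.59 ± 0.52). These 4 genes were near 0 in DBA2J AM.

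Nov, a matricellular gene, had the opposite pattern, at 1.76, 2.75, 249 and 234 in AM and 0, 0, 0.707 and 0 in iMo (interaction 5.85 ± 0.44, adjusted p = 0.00316). In iMo the strain difference was seen in Nkg7, a cytotoxic granule gene, at 53.5, 68.2, 3.75 and 2.26, and in the prostaglandin-degrading enzyme Hpgd, at 66.6, 128, 4.13 and 9.73, both higher in C57BL6J (interactions 5.90 ± 0.91 and 5.47 ± 0.76). NK cells also carry Nkg7, and T and NK cell markers summed higher in C57BL6J iMo; their part was not tested. The histone gene Hist1h4j rested on 20 AM and 2 iMo reads and its histone copies may share reads (interaction -6.30 ± 0.82). Its difference was 4.74 in C57BL6J and -1.56 in DBA2J. Over both strains the ratio of AM to iMo in scaled reads was 6.146, with an interval of 1.701 to 50.75 from the iMo reads alone. Reads of both strains were processed with the same build, and the part of strain variants in these differences was not tested.

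Other genes kept their direction in both strains and differed in size. Spp1 differed by 7.35 in C57BL6J and 9.35 in DBA2J (adjusted p = 0.0352), Epcam by 5.48 and 1.38 (adjusted p = 0.0105), and Marco by 6.95 and 3.53 (adjusted p = 0.0121). The class II genes H2-Aa (-2.51 and -4.48) and Cd74 (-2.39 and -4.54) were further apart in DBA2J, and the interferon-stimulated genes Rsad2 (-5.97 and -3.92) and Irf7 (-6.69 and -5.57) in C57BL6J. Each of these 7 interaction calls was lost when some single libraries were left out, from 3 of the 8 libraries for Epcam to each of the 8 for Rsad2. Among the named genes with the largest interactions, Cd22, Chil1, Wfdc21, Mcoln3, Pnpla5, Spag11b and Nov kept the call without any 1 library, and Nkg7, Hpgd and Hist1h4j did not.

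**Figure D4:**
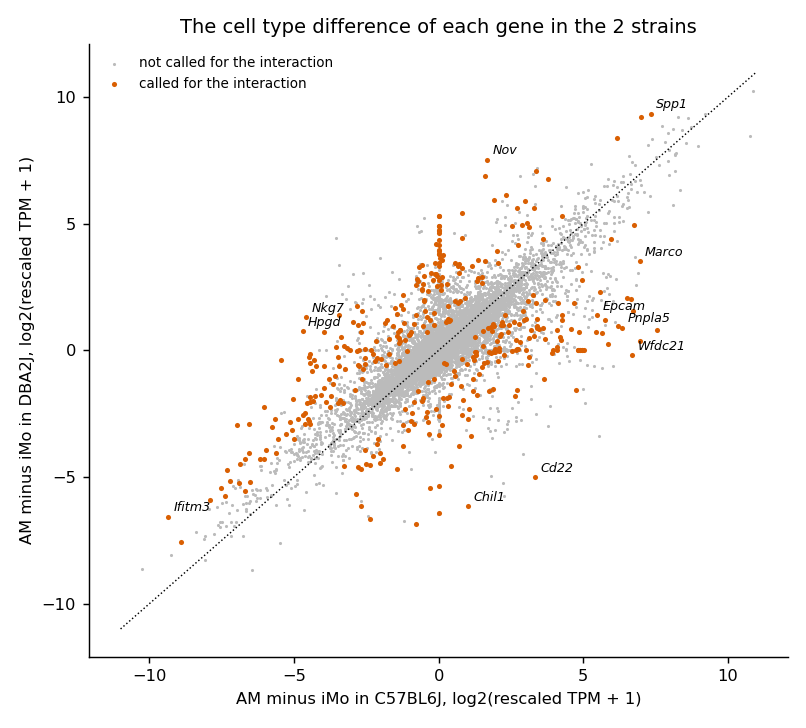
AM minus iMo log2 difference in C57BL6J (x axis) against that in DBA2J (y axis), both on the log2(TPM + 1) scale, 1 point per tested gene, with genes called for the interaction in orange, some of them named, and equal differences on the dotted line. Points near the diagonal differ alike in both strains, and Cd22 lies with a positive difference in C57BL6J and a negative one in DBA2J.

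Open chromatin at gene starts gave a readout that the RNA comparison did not use. The deposited lists held 32668 peaks for C57BL6J AM, 43690 for DBA2J AM, 35947 for C57BL6J iMo and 32636 for DBA2J iMo. A peak within 500 bases of a gene's start was counted for a cell type when it was in the lists of both strains, so a gene of the AM alone class may still have a peak in 1 iMo list. Of 249 genes higher in AM by at least 16-fold, 25.7% had a peak in AM alone and 4.42% in iMo alone. Of 188 genes lower by at least 16-fold, 7.45% had a peak in AM alone and 33.0% in iMo alone. Over all genes tested the shares were 4.05% and 16.1%, and for called genes of any size 7.09% and 14.1% when higher in AM and 3.89% and 18.6% when lower. No peak in both strains of either type was found for 53.0% of the genes at least 16-fold higher and 41.5% of those at least 16-fold lower, beside 28.5% of all. The excess of iMo alone peaks was not seen among peaks above the median score of each list, where 18.6% of the genes at least 16-fold lower had an iMo alone peak, beside 24.95% of all genes. The AM share was then 20.1% beside 4.455%. With 1 list per cell type and strain there is no test over samples.

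**Figure D5:**
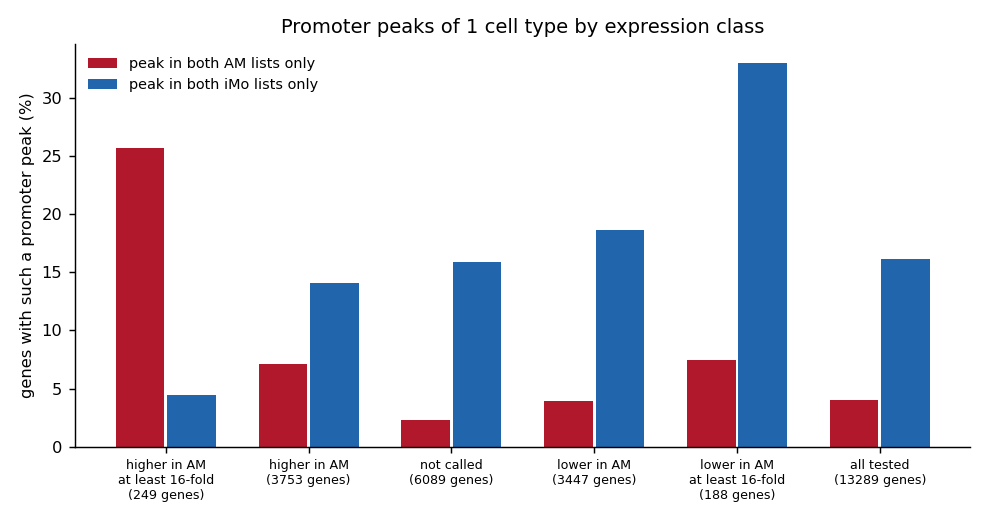
Share of genes (percent) with a peak within 500 bases of the start in both AM lists only (red bars) or both iMo lists only (blue bars), by the size and direction of the RNA difference (x axis, with the number of genes in each class). The AM alone share is 25.7% for genes at least 16-fold higher in AM, and the iMo alone share is 33.0% for genes at least 16-fold lower.

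Plet1, Cidec, Siglecf, Itgax and Bhlhe41 each had a peak at the start in both AM lists and in neither iMo list. Abcg1, Angptl4 and Mertk had AM peaks and one in the DBA2J iMo list. Among genes lower in AM, Cx3cr1, Tlr9 and Mx1 had peaks in both iMo lists, and also in the DBA2J AM list, the longest of the 4. Peak and RNA did not always go together. Itgam and Adgre4 had AM alone peaks and lower RNA in AM, Ccr2 had a peak in the C57BL6J iMo list alone, Ly6c2 had one in the C57BL6J iMo and DBA2J AM lists, and Krt19, Marco, Cd22, Chil1, Ciita, Nlrc5 and Oasl2 had none in any of the lists at this distance.

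The 200 bases before the starts of Plet1 (chr9:50494325-50494524 on the plus strand), with an AM alone peak, and of Ly6c2 (chr15:75111938-75112137 on the minus strand), without one, show the letters searched for 2 myeloid factors. The capitals mark the C/EBP type TTGCNNAA in Plet1 and the PU.1 type GAGGAAGT in Ly6c2, on either strand (RefSeq, GRCm38.p6, 5′ to 3′).
Plet1: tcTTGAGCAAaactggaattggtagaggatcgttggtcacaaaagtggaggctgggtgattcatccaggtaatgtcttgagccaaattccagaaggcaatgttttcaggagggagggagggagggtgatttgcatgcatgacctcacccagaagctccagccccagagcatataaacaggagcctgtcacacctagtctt
Ly6c2: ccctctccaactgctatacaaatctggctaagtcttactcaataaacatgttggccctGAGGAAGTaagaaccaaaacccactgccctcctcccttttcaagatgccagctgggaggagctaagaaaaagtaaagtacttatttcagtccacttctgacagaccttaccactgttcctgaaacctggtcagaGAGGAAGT

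GAGGAAGT was in 4 of 14 windows of the listed iMo markers (F13a1, Ly6c2, Mmp8 and S100a8), in 0 of 16 of the listed AM markers and in 3.24% of all windows. Of these 4 genes, S100a8 was called higher in AM. The letters were in 3.95% of the windows of genes at least 16-fold higher in AM and in 12.2% of those at least 16-fold lower. In Ly6c2 GAGGAAGT occurred 2 times, with one copy ending at the base before the start. TTGCNNAA was in 5 of 16 windows of the listed AM markers (Ear1, Ear2, Fabp1, Plet1 and Pparg), in 3 of 14 of the listed iMo markers and in 10.2% of all. It was in 15.8% of the windows of genes at least 16-fold higher in AM and in 7.19% of those at least 16-fold lower. Of all windows, the PPAR and RXR type, 2 copies of AGGTCA with 1 base between them, was in 0.0663%. Nothing about a factor's binding follows from these letters.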

How the data were processed

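TPM per gene were deposited by the authors for 24940 genes, with build mm10 and the tools STAR, Bowtie and HOMER, per the submitters' processing notes, which give no versions or roles. The deposited peak lists hold a score per peak, the authors' own, of unstated scale; it was used only to rank peaks within a list. Samples were grouped by the labels.

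Rn45s and Mir6236 were removed and each library was rescaled to the same sum. The 13289 genes that averaged 1 rescaled TPM or more across the 8 libraries entered a limma 3.58.1 model (R 4.3.3) of log2(TPM + 1) (cell type and strain, eBayes with a mean-variance trend, Benjamini-Hochberg adjustment over all genes tested). A second fit added their interaction. The scripts were tested on simulated data. Multiplying TPM by the table's length gave values within 0.15 of whole reads; these were used for depth, bounds and alternatives, not for the calls. A bound takes 3 reads over the group as the floor and intervals are at 95%. Both cover only the counting error of the reads in the lower cell type. Starts of genes are those of the table. Figures and peak counts used Python 3.11.15, numpy 2.4.6, pandas 2.3.3 and matplotlib 3.10.9.

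The comparison, its members and the gene lists were chosen with earlier results of these data known. Named by rule were the 15 largest differences in each direction (called, at least 10 TPM in the higher cell type, no overlap, no predicted or small RNA genes), up to 4 called members of each list, the sort panel, the markers and the 10 largest interactions of genes with at least 10 TPM in a group; not all are printed. Alox5ap, Atp5c1, Axl, Bhlhe40, Car4, Ccl22, Ccnd1, Cd14, Cd163, Cd36, Cd9, Cdc20, Cdh1, Cebpa, Clec4n, Clec7a, Csf1r, Csf2rb, Csf2rb2, Ctss, Cxcl2, Ddx58, F10, F5, Fpr1, Gm2a, Gsr, H2-K1, Hadha, Hp, Ifi35, Ifit1, Ifit2, Ifit3, Il18, Il1b, Irf7, Jun, Kit, Krt7, Krt80, Ltb4r1, Mgll, Mki67, Mmp19, Msr1, Npc2, Plin2, Pparg, Prdx6, Psap, Rpl4, Rsad2, Runx1, Sftpc, Spi1, Tfec, Tgfbr2, Tgm2, Tk1, Tlr3, Tlr4, Vcan, Xaf1 and Zfp36 were named after their values were seen. Single-strain fits, left-out libraries and other scalings are given in the closing section.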

Additional observations from a re-analysis of the deposited data

Results flagged for a closer look

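The AM minus iMo difference of 29 named genes differed between the strains by the interaction test (limma, Benjamini-Hochberg adjusted p under 0.05 over all genes). The difference, DBA2J minus C57BL6J on the log2 scale, was positive for 13 genes: Spp1 2.00, Ffar2 2.23, Plac8 1.34, Ifitm3 2.80, Irf7 1.12, Rsad2 2.05, Ccl9 1.94, Adgre5 2.07, Msr1 2.29, Thbs1 1.73, Nkg7 5.90, Nov 5.85 and Hpgd 5.47. It was negative for 16 genes: Ear2 -1.47, Epcam -4.10, Rrm2 -1.51, H2-Aa -1.97, Cd74 -2.15, Marco -3.42, Fcgrt -1.12, Fcgr2b -2.10, Csf3r -1.82, Cd22 -8.34, Chil1 -7.18, Wfdc21 -6.88, Mcoln3 -6.59, Hist1h4j -6.30, Spag11b -5.59 and Pnpla5 -5.43. The largest value belonged to Cd22, which was high in C57BL6J AM and in DBA2J iMo. The scavenger receptor genes went in opposite directions, with Marco further above iMo in C57BL6J and Msr1 further below iMo in C57BL6J.

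Of the 29 interaction calls, 8 (Cd22, Chil1, Fcgr2b, Mcoln3, Nov, Pnpla5, Spag11b and Wfdc21) were kept whichever single library was left out, and 21 were lost without at least 1 library. Without AM C57BL6J replicate 1 the call was lost for 18 genes (Adgre5, Csf3r, Ear2, Epcam, Fcgrt, H2-Aa, Hist1h4j, Hpgd, Ifitm3, Irf7, Marco, Msr1, Nkg7, Plac8, Rrm2, Rsad2, Spp1 and Thbs1). Without AM C57BL6J replicate 2 it was lost for 19, which were Adgre5, Ccl9, Csf3r, Ear2, Epcam, Fcgrt, Ffar2, Hist1h4j, Hpgd, Ifitm3, Irf7, Marco, Msr1, Nkg7, Plac8, Rrm2, Rsad2, Spp1 and Thbs1. The 17 genes lost without iMo DBA2J replicate 1 were Adgre5, Cd74, Csf3r, Ear2, Fcgrt, H2-Aa, Hist1h4j, Hpgd, Ifitm3, Irf7, Marco, Msr1, Nkg7, Plac8, Rrm2, Rsad2 and Thbs1. The 16 lost without iMo DBA2J replicate 2 were Adgre5, Cd74, Csf3r, Ear2, Epcam, H2-Aa, Hist1h4j, Ifitm3, Irf7, Marco, Msr1, Nkg7, Plac8, Rrm2, Rsad2 and Thbs1. Leaving out AM DBA2J replicate 1 ended 8 calls (Cd74, Ear2, H2-Aa, Irf7, Rrm2, Rsad2, Spp1 and Thbs1), and AM DBA2J replicate 2 ended 10 (Cd74, Ear2, Fcgrt, H2-Aa, Hpgd, Msr1, Rrm2, Rsad2, Spp1 and Thbs1). Leaving out iMo C57BL6J replicate 1 ended 5 (H2-Aa, Rrm2, Rsad2, Spp1 and Thbs1), and iMo C57BL6J replicate 2 ended 8 (Adgre5, Cd74, H2-Aa, Hpgd, Nkg7, Rsad2, Spp1 and Thbs1).

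A sample stood apart from the other 3 of its cell type by Dixon's criterion in 14 of 376 groups of 4 for the named genes. Groups with no spread or with all values under 1 are among the 376 but could not be flagged. Each group holds both strains, so the chance rate of about 1 in 20 for like samples does not apply. AM DBA2J replicate 2 did so for Ptprc at 202, Pou2f2 at 4.26, B2m at 1529, Mrc1 at 376 and Nkg7 at 19.6. AM DBA2J replicate 1 stood apart for Retnla at 1.06 and AM C57BL6J replicate 2 for Cxcr1 at 117. iMo C57BL6J replicate 1 did so for Cebpa at 1778, Aldoa at 1065 and Txn1 at 39.0, and iMo C57BL6J replicate 2 for Arhgef37 at 339 and Ifit1 at 49.1. iMo DBA2J replicate 1 stood apart for H2-Aa at 1423 and iMo DBA2J replicate 2 for Vwf at 2.86. All of these are rescaled TPM.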

How the results depend on the processing

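The calls were recomputed with a pseudocount of 0.1, other filters on low values, other scalings, other models, each strain alone and each library left out. Of 178 named genes called, 160 kept direction and call in all 22 alternatives, 18 lost the call in at least 1 (Atp5c1, Ccl22, Cd14, Cebpa, Cldn5, Clec7a, Ctss, Egr1, F10, Jun, Mcoln3, Ndufv1, Pnpla5, Rplp1, S100a8, Slc2a3, Spag11b and Tk1), and Ctss alone of these changed sign (-0.051 with TPM as deposited). On TPM as deposited 1510 of 11695 genes tested were higher in AM and 6576 lower. The interaction was then called for 255 genes, and 19 of 34 fatty acid genes tested were higher. Requiring a 2-fold difference left 3867 genes, 2161 higher and 1706 lower. Counts over all genes lay between 6138 and 7234 when 1 library was left out. The interaction count lay between 133 and 548 when 1 library was left out, and was 1092 on recovered reads scaled to the library and 660 with voom on recovered reads. These last alternatives were chosen after seeing the data. Of 6913 called genes that both fits tested, voom called 6715 in the same direction and none in the other. Of genes at least 16-fold higher, 34.1% had an AM alone peak within 2000 bases and 20.1% among peaks above the median score; of genes at least 16-fold lower, 18.6% had an iMo alone peak among those, below the 24.95% of all genes, which turns round the excess found with all peaks. On the AM side the shares of all genes were 4.884% and 4.455%.

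The 10 genes not called whose values are described (Adgre1, Cd22, Chil1, Hist1h4j, Hpgd, Ly6c1, Nkg7, Sftpc, Spi1 and Wfdc21) each passed the threshold in at least 1 alternative. Those that changed sign were Adgre1 (-0.33 as deposited), Spi1 (0.048 after quantile normalization), Cd22 (3.34 in C57BL6J alone, -1.79 to 0.17 with 1 library left out), Hist1h4j (-1.56 in DBA2J alone), Nkg7 (1.32 in DBA2J alone) and Hpgd (0.76 in DBA2J alone). With the replicate number as a block (replicate block), 6385 genes were called, 6324 of them also without it, and Atp5c1, Mcoln3 and Spag11b lost the call. Within C57BL6J the residuals of same-numbered libraries correlated at 0.0217, and within DBA2J at -0.0451. Each value rests on 2 libraries per cell type, so it cannot show whether the numbers pair samples, and no label says it. Because TPM were divided by genomic span, 926 genes with at least 10 reads on average fell below 1 TPM and were not tested (median length 95776 bases, against 16357 for tested genes), of which voom called 337 higher and 133 lower.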
